A study of Mus musculus with 9 samples.

Results

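The genes Afp, H19, Igf2, Gpc3, Golm1 and Ly6d are transcripts that are used as markers of the fetal liver or of hepatocellular carcinoma. They were chosen by name, with earlier results of these data known, and all 6 were among the 24008 genes listed for these livers. RNA was sequenced from the livers of 9 mice in 3 groups of 3, with 1 library per mouse. All groups received a diet rich in fat and carbohydrate that induces nonalcoholic steatohepatitis (NASH), so no group had a normal liver. Flox mice, labelled WT in the deposit, served as the control. F4MKO mice lacked the transcription factor IRF4 in skeletal muscle (Irf4 flox with Myl-Cre), and the gene was not deleted in liver cells. F4MKO+FSTL1 mice carried the same deletion and overexpressed the secreted protein FSTL1 from a virus with the muscle creatine kinase promoter, injected into the gastrocnemius muscle. The methods place a GFP virus in Flox and F4MKO mice, while the labels name no virus for them. Mice were of the C57BL/6J background and male in most statements of the methods, which give 8 weeks as the age at the start. All 9 libraries had the pattern of male liver, with at most 3 counts of Xist and at least 850 of the Y-linked gene Ddx3y. The livers were collected 4 weeks after the virus, and the age at collection is not stated. The length of the diet is given as 24 weeks in some places and as 12 weeks in another.

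In mouse development, Afp, the fetal counterpart of serum albumin, and Igf2, a fetal growth factor, are made in large amounts by the fetal liver and are shut off after birth. H19 is a long noncoding RNA of the same imprinted domain as Igf2 and is read from the maternal chromosome, whereas Igf2 is read from the paternal chromosome. The repressor Zhx2 takes part in silencing Afp, H19 and Gpc3 in the adult mouse liver. Gpc3 encodes glypican 3, a heparan sulfate proteoglycan held at the cell surface by a GPI anchor, and is a tissue marker of hepatocellular carcinoma. Golm1 encodes GP73, a Golgi membrane protein that is cut by furin and released into serum, and that rises in chronic liver disease and liver cancer. Ly6d encodes a small GPI-anchored protein of the Ly6 family and is best known from lymphoid progenitors and stratified epithelia.

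Sequence upstream of the start site is shown for Afp, which was called in none of the comparisons below, and for Golm1, the member with a promoter entry that was called. RefSeq (GRCm38.p6) had promoter entries for 4 of the 6 members, and not for H19 and Ly6d. Each line gives the 250 bases before the start annotated in RefSeq, on the strand of the gene, 5′ to 3′. GENCODE places the start of Afp further along, at chr5:90490737, and that of Golm1 inside its window, at chr13:59675811. Capitals mark the motifs, which were searched on both strands. They were TATAAA as the TATA box, GGGCGG as the GC box that binds SP1, CCGGAAGT as the core bound by ETS factors, and as half-sites of the liver factor HNF1 both GTTAAC, which reads the same on either strand, and the variant with the letters GTTAAT.
Afp, chr5:90490464-90490713, plus strand: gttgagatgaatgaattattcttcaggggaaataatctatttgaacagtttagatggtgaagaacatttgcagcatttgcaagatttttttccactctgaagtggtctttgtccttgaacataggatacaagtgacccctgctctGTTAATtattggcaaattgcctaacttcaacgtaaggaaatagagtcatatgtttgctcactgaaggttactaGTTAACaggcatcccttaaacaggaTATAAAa
Golm1, chr13:59675785-59676034, minus strand: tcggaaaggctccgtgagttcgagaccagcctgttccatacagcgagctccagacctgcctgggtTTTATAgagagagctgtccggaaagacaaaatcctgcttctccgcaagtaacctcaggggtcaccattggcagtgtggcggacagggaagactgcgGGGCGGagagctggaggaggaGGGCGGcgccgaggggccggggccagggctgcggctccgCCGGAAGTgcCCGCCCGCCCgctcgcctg
The Afp window held TATAAA at position -7, GTTAAC at -32 and GTTAAT at -105, counted back from the RefSeq start to the first base of the match. Of all 32851 RefSeq windows of this length, 12.4% held TATAAA, 2.56% held GTTAAC and 6.43% held GTTAAT. The Golm1 window held 4 matches to GGGCGG, of which the 2 nearest to the start overlap on the reverse strand, and GGGCGG was found in 32.7% of windows. It also held CCGGAAGT at -29, present in 2.88% of windows, and TATAAA on the reverse strand at -185. G and C made up 36% of the Afp window and 65.6% of the Golm1 window, against a median of 52.4% over all windows. The single Gpc3 window had 71.6% G and C with 3 matches to GGGCGG, and the 4 Igf2 windows had between 47.6% and 68.8%. These matches are letters in a window, and no binding was measured here.

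In GENCODE vM21 (GRCm38), Afp lies at chr5:90490737-90508907 on the plus strand, 14134 bp after Alb and 10024 bp before Afm, 2 genes of the same family. H19 (chr7:142575529-142578143) and Igf2 (chr7:142650766-142666816) are both on the minus strand with 72622 bp between them. Gpc3 spans chrX:52272426-52613950 on the minus strand, next to its relative Gpc4 at a distance of 107173 bp. Golm1 (chr13:59634626-59675811) and Ly6d (chr15:74762056-74763620) are on the minus strand as well. Ly6d is the shortest member, with 3 exons and 744 exonic bases, and Igf2 the longest, with 5723. Naa35, a gene of the opposite strand, shares 29.3% of the exonic bases of Golm1, and whether reads were counted by strand is not given in the sources used here. Gm49394, a gene model of the same strand, shares 62.8% of the exonic bases of Igf2, so reads of these 2 models can be split or discarded in counting.

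The libraries held 20656976 to 24322984 counted reads each. Levels are given below as CPM, counts divided by the library total and scaled by edgeR's TMM factors, and different genes are compared per kilobase of exon (RPKM). A gene was called when edgeR's quasi-likelihood test gave a Benjamini-Hochberg adjusted p under 0.05 over the 14379 genes tested and its fold change was above 1.5. All 6 members passed the filter on low counts. The deletion and the virus act in muscle, so no transcript measured in the liver checks the genotype or the virus, and the direction of every comparison rests on the labels alone. Irf4 had 10 to 132 counts per library. Liver Fstl1 was 6.77 ± 0.764 CPM in Flox, 12.4 ± 3.30 in F4MKO and 4.29 ± 1.05 in F4MKO+FSTL1 livers (SD, n = 3). The 10 hepatocyte markers summed to 75617 CPM in F4MKO replicate 1 and to between 89162 and 107720 CPM in the other libraries. This library also had the highest TMM factor (1.17) and the highest level of Afp, H19, Golm1 and Ly6d among the 9 libraries. Member values without this library are given where they change a call, and for the called members.

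Ly6d was by far the most abundant member in every group. Its mean level was 30.7 RPKM in Flox, 121 in F4MKO and 10.3 in F4MKO+FSTL1 livers, which placed it at the percentiles 90.2, 97.5 and 77.1 of the 13390 tested genes with a known length. Golm1 followed with 1.53, 2.46 and 0.710 RPKM. Gpc3 (1.10, 0.934 and 0.651 RPKM) and Afp (0.530, 0.590 and 0.481 RPKM) were low, at percentiles between 18.7 and 30.3. H19 reached 0.377, 1.30 and 0.522 RPKM. Igf2 was near the bottom of all tested genes, with 0.0548, 0.0670 and 0.0642 RPKM and percentiles from 0.9 to 2.5. For scale, albumin, the adult relative of Afp, had 29213, 27627 and 26060 RPKM. The 2 most abundant members, Ly6d and Golm1, were the only ones called between groups in the edgeR fit, and without the filter on low counts H19 was called as well.

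**Figure D1:**
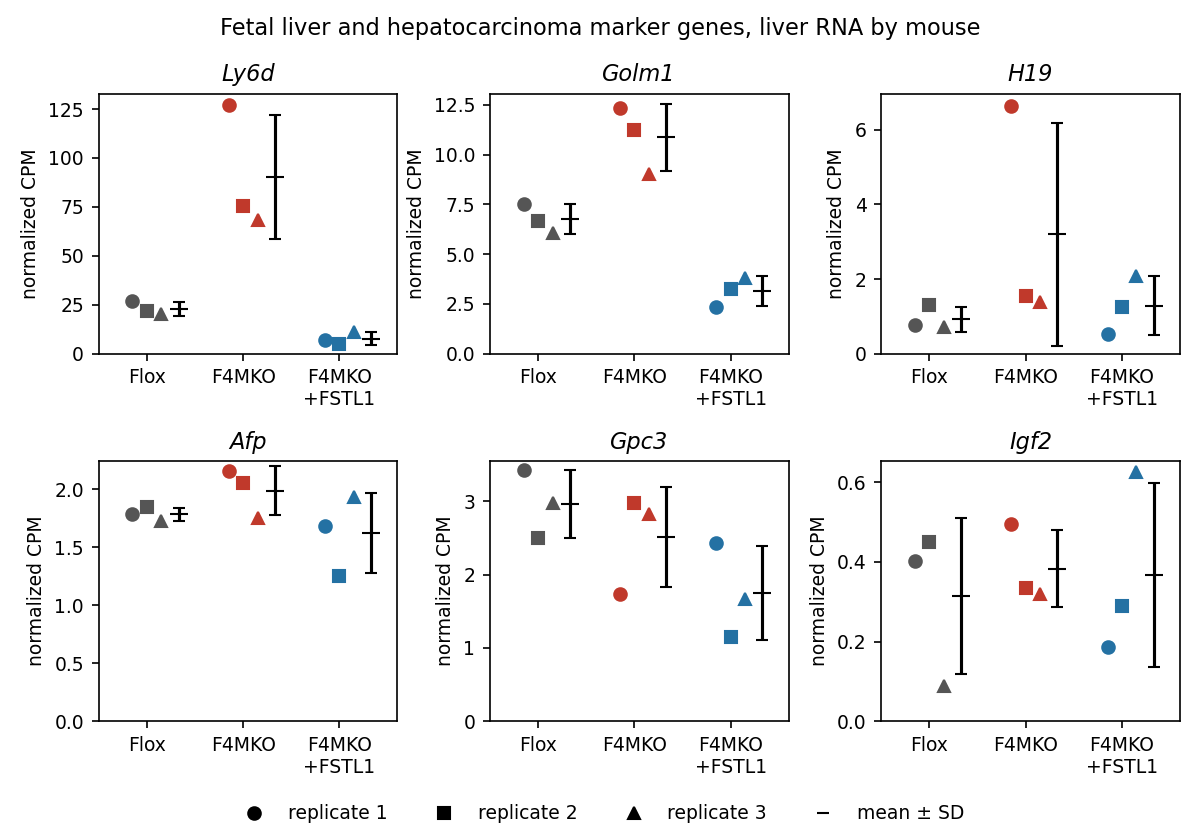
Level of each member in every mouse, in normalized CPM on a linear axis from 0, with a separate scale for each gene; symbols mark the replicate number, and the bar beside each group is the mean ± SD of 3 mice. Ly6d and Golm1 fall into 3 separate bands, highest in F4MKO and lowest in F4MKO+FSTL1, whereas the F4MKO mean of H19 is drawn up by 1 mouse at 6.65 CPM.

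Ly6d differed most. The Flox livers had 26.7, 21.7 and 20.2 CPM of it, the F4MKO livers 127, 75.6 and 68.3, and the F4MKO+FSTL1 livers 6.87, 4.81 and 11.2. Every F4MKO library was above every Flox library, and every F4MKO+FSTL1 library was below both. The group means were 22.9 ± 3.40, 90.3 ± 31.9 and 7.63 ± 3.28 CPM (SD, n = 3). Ly6d was 3.95-fold higher in F4MKO than in Flox livers (log2 fold change 1.98, standard error 0.28, adjusted p = 0.0351 from edgeR), which made it the gene with the rank 4 by p among all tested genes. F4MKO+FSTL1 livers had 11.9-fold less of it than F4MKO livers (log2 fold change -3.57, standard error 0.31, adjusted p = 0.000340 from edgeR). Against Flox the log2 fold change of F4MKO+FSTL1 was -1.59 (95% interval -2.24 to -0.93, adjusted p = 0.0777 from edgeR), so this difference did not pass the test, although DESeq2 called it (adjusted p = 0.00612).

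The rise of Ly6d in F4MKO livers lost its call in 4 of the 9 fits that left out 1 library. Without F4MKO replicate 1 the F4MKO mean was 72.0 CPM and the log2 fold change 1.65 (adjusted p = 0.114 from edgeR). Without Flox replicates 1, 2 or 3 it was 2.11, 1.94 and 1.90, with adjusted p-values of 0.132, 0.0802 and 0.107, and in each of these 4 fits 0 genes were called in this comparison. The fall after FSTL1 kept its call without F4MKO replicate 1 (log2 fold change -3.25, adjusted p = 0.00172 from edgeR).

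Golm1 showed the same order of groups with smaller steps. The Flox libraries had 7.53, 6.68 and 6.04 CPM, the F4MKO libraries 12.3, 11.2 and 9.02, and the F4MKO+FSTL1 libraries 2.34, 3.27 and 3.81. The 3 groups did not overlap. Their means were 6.75 ± 0.752, 10.9 ± 1.69 and 3.14 ± 0.747 CPM (SD, n = 3). Golm1 was 3.47-fold lower in F4MKO+FSTL1 than in F4MKO livers (log2 fold change -1.79, standard error 0.19, adjusted p = 0.000829 from edgeR), and without F4MKO replicate 1 the log2 fold change was -1.69 (adjusted p = 0.00270). The difference between F4MKO and Flox was 0.69 on the log2 scale (standard error 0.18, unadjusted p = 0.00272, adjusted p = 0.106 from edgeR) and did not pass the test, while DESeq2 called it (0.68, adjusted p = 0.0311). Without F4MKO replicate 1 it was 0.58 (adjusted p = 0.353 from edgeR). F4MKO+FSTL1 compared with Flox gave -1.11 (standard error 0.20, adjusted p = 0.0713 from edgeR), called by DESeq2 as well (adjusted p = 0.000314). Naa35, the gene that shares exonic bases with Golm1, stayed between 24.8 and 30.0 CPM in all libraries, and its log2 fold changes in the same order of comparisons were 0.13, -0.12 and 0.01, none of them called.

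H19 was high in a single mouse. The Flox livers gave 17, 32 and 16 reads, the F4MKO livers 188, 37 and 35, and the F4MKO+FSTL1 livers 11, 26 and 40. Replicate 1 held 72.3% of the H19 counts of the F4MKO group, and the other F4MKO libraries (1.55 and 1.40 CPM) lay just above the highest Flox library (1.31 CPM). The group means were 0.926 ± 0.334, 3.20 ± 2.99 and 1.28 ± 0.788 CPM (SD, n = 3), and the F4MKO mean was 1.47 CPM without replicate 1. F4MKO exceeded Flox by 1.79 on the log2 scale (standard error 0.63, adjusted p = 0.195 from edgeR), and without replicate 1 it was 0.66 (adjusted p = 0.698). For F4MKO+FSTL1 compared with F4MKO it was -1.34 (adjusted p = 0.145 from edgeR), and without that library -0.22 (adjusted p = 0.812). Neither difference passed this test. Without the filter on low counts both were called, at 1.79 (adjusted p = 0.0277 from edgeR) and -1.34 (adjusted p = 0.0394). F4MKO+FSTL1 and Flox livers overlapped (0.45, adjusted p = 0.864).

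Igf2, the neighbour of H19, was barely detected. It had 9, 11 and 2 reads in the Flox livers, 14, 8 and 8 with F4MKO, and 4, 6 and 12 with F4MKO+FSTL1. The groups overlapped, with means of 0.314 ± 0.196, 0.383 ± 0.0973 and 0.367 ± 0.230 CPM (SD, n = 3). F4MKO differed from Flox by 0.29 on the log2 scale, with a 95% interval from -0.93 to 1.51. A 2-fold higher level lay within that interval, so these data do not exclude a difference of this size.

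Afp varied little. Its counts were 40, 45 and 39 in Flox, 61, 49 and 44 in F4MKO, and 36, 26 and 37 in F4MKO+FSTL1 libraries. The means of 1.79 ± 0.0566, 1.99 ± 0.208 and 1.62 ± 0.345 CPM (SD, n = 3) came from groups that overlapped. F4MKO differed from Flox by 0.16 on the log2 scale (95% interval -0.32 to 0.63), and F4MKO+FSTL1 differed from F4MKO by -0.30 (95% interval -0.78 to 0.19). The adjusted p-values from edgeR were 0.757 and 0.366. These intervals do not reach a 2-fold change in either direction.

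Gpc3 had its highest level in Flox livers. The Flox libraries had 3.43, 2.50 and 2.97 CPM, the F4MKO libraries 1.73, 2.97 and 2.83, and the F4MKO+FSTL1 libraries 2.43, 1.15 and 1.67. F4MKO overlapped with both other groups, whereas the F4MKO+FSTL1 libraries were all below the Flox libraries. The means were 2.97 ± 0.467, 2.51 ± 0.679 and 1.75 ± 0.642 CPM (SD, n = 3). The log2 fold change was -0.24 for F4MKO compared with Flox (adjusted p = 0.704 from edgeR), -0.51 for F4MKO+FSTL1 compared with F4MKO (adjusted p = 0.247) and -0.75 for F4MKO+FSTL1 compared with Flox (unadjusted p = 0.0272, adjusted p = 0.302). None passed the test.

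Counted over the members, F4MKO compared with Flox gave 1 call of 6, Ly6d higher, where 0.202% of all tested genes were called higher. No member was called lower by edgeR or DESeq2. An unadjusted p under 0.05 was reached by 3 members (H19, Golm1 and Ly6d) and by 2424 of the 14379 tested genes. DESeq2 called 2 members higher, where it called 254 genes higher among 15162 with an adjusted p. H19, Golm1 and Ly6d were above Flox in every F4MKO library, which held for 11.7% of tested genes. Between F4MKO+FSTL1 and F4MKO there were 2 calls, Golm1 and Ly6d lower, where 11.2% of tested genes were called lower and 3.21% higher. The 1609 lower calls behind that share were 1045 without F4MKO replicate 1 and 959 without F4MKO+FSTL1 replicate 2. These 2 members were also the ones whose groups did not overlap, which held for 21.1% of tested genes in this direction. F4MKO+FSTL1 compared with Flox gave 0 calls by edgeR, where 0.00695% of tested genes were called in either direction. In that comparison 3 members (Gpc3, Golm1 and Ly6d) had an unadjusted p under 0.05, as had 1924 of the 14379 tested genes. DESeq2 called 2 members lower, where it called 234 genes lower among 14231 with an adjusted p. For Gpc3, Golm1 and Ly6d every F4MKO+FSTL1 library lay below all Flox libraries, which held for 10.7% of tested genes. The full order of F4MKO above Flox above F4MKO+FSTL1 without overlap was found for 2 members, Golm1 and Ly6d, and for 3.49% of tested genes. The first 2 comparisons share the F4MKO libraries, so a high F4MKO level enters both. Since the members were chosen with earlier results of these data known, these counts and shares are a description and not independent evidence.

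**Figure D2:**
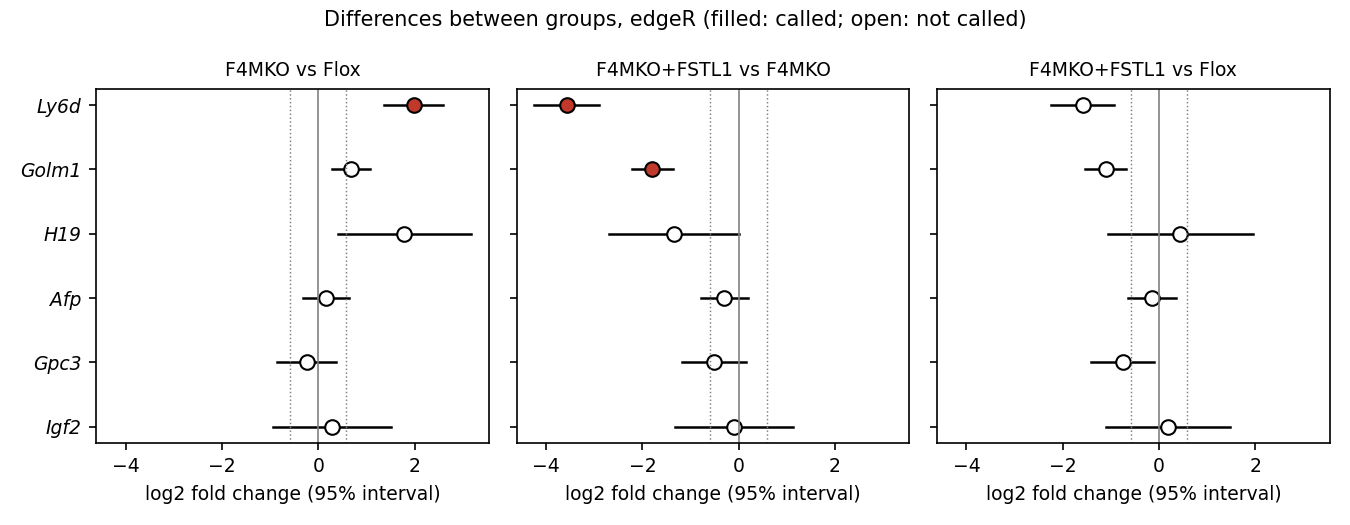
Log2 fold change of each member in the 3 comparisons (edgeR, n = 3 mice per group), with 95% intervals; filled points were called, open points were not, and dotted lines mark a fold change of 1.5. Ly6d was called in the first 2 comparisons and Golm1 in the second, and the intervals of H19 and Igf2 are the widest.

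The members shared directions in part, while their differences varied in size. The log2 fold change was positive for 5 of the 6 in F4MKO compared with Flox. It was negative for all 6 in F4MKO+FSTL1 compared with F4MKO, and most of these values were not called. Over the 9 libraries, Pearson's r of log2 CPM was 0.95 for Golm1 and Ly6d, and 0.58 after the group means were removed. Afp had an r of 0.75 with Ly6d (0.86 after the group means were removed) and of 0.64 with Golm1. H19 and Igf2, which share an imprinted domain, had an r of 0.64, and Afp and Gpc3 had an r of 0.42. The r of H19 and Gpc3 was -0.45. These values describe 9 libraries of 3 groups and carry no test. Any difference between libraries in depth or cell content that the genes share would enter them, and cell content was not measured. The genes whose log2 CPM was most like that of Ly6d were Elf3, Meox1 and Prss8, each with an r of 0.99. Elf3 had 21, 24 and 19 counts in Flox, 112, 50 and 50 in F4MKO, and 7, 4 and 9 in F4MKO+FSTL1 libraries. Prss8 had 117, 110 and 110, then 301, 193 and 199, then 67, 64 and 70. Meox1 was near the floor, with 6 to 7 counts in Flox, 14 to 32 in F4MKO and 1 to 2 in F4MKO+FSTL1 libraries. Most like Golm1 were Mtmr11, Pck2 and Ccdc88a (r = 0.98 each). Most like Afp were Tcaf2, Ptgfrn and Cenpc1 (r of 0.94 to 0.95), and most like H19 were Fbxw7, Laptm5 and Mdm2 (0.97, 0.94 and 0.92). Most like Gpc3 was Plvap, an endothelial protein of fenestrae (0.96), followed by Fam81a and Cyp2s1 (0.92 each). Most like Igf2 were Zbtb34, BC030336 and Exoc5 (0.97, 0.96 and 0.92).

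Markers of bile duct, cycling and stellate cells moved in the same order as Ly6d and Golm1. The bile duct sums of Flox and F4MKO+FSTL1 libraries overlapped, whereas the cycling and stellate sums separated all groups. The 8 cholangiocyte markers (Krt19, Krt7, Epcam, Sox9, Spp1, Cftr, Tspan8 and Muc1) summed to between 52.2 and 93.0 CPM in Flox, 169 and 450 CPM in F4MKO, and 37.2 and 55.7 CPM in F4MKO+FSTL1 libraries. Spp1 alone made up 78.4% to 88.3% of the sum in each library, and the other 7 markers summed to 10.1 to 14.8, 25.5 to 52.6 and 7.40 to 12.01 CPM in the same order of groups. Of the 7 that could be tested, 3 were called higher in F4MKO than in Flox, where 0.202% of tested genes were. In F4MKO+FSTL1 compared with F4MKO 6 were called lower, where 11.2% of tested genes were. None of the 8 was at 0 in a whole group. F4MKO replicate 1 had the highest sum (450 CPM) as well as the highest Ly6d and Golm1. Cycling cell markers summed to 18.0 to 32.5, 38.9 to 48.7 and 6.68 to 11.4 CPM, and stellate cell markers to 420 to 490, 551 to 717 and 273 to 375 CPM in the same order of groups. Macrophage markers were at 406 to 662, 483 to 582 and 239 to 374 CPM. In F4MKO compared with Flox 0 of 10 cycling, 0 of 10 stellate and 1 of 9 macrophage markers were called, the last higher. In F4MKO+FSTL1 compared with F4MKO 10, 6 and 6 of these were called lower. Endothelial, B cell and T cell markers had 0 calls in both comparisons. Endothelial markers (216 to 269, 167 to 218 and 192 to 240 CPM) overlapped between all groups, and so did B cell markers (8.28 to 13.6, 7.29 to 15.8 and 5.28 to 9.77 CPM) and T cell markers (3.95 to 5.66, 4.77 to 8.03 and 2.34 to 6.89 CPM). Erythroid markers were at 184 to 237, 187 to 223 and 255 to 376 CPM, and adipocyte markers at 48.2 to 120, 111 to 128 and 67.7 to 217 CPM. The adipocyte sum came almost wholly from Cidec, Fabp4 and Cfd, since Adipoq, Plin1 and Lep had at most 2 counts in any library. Skeletal muscle markers were at most 1.72 CPM in any library. The part of these cell types in the Ly6d and Golm1 results was not tested, and in RNA from whole tissue fewer cells of a type and less RNA per cell cannot be told apart.

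**Figure D3:**
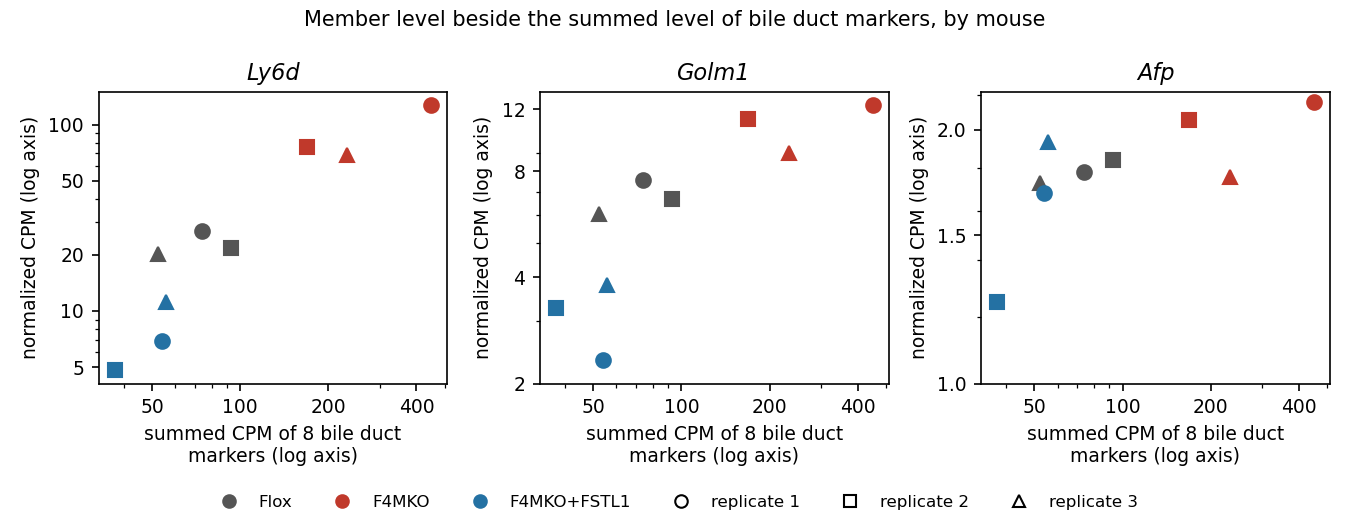
Level of Ly6d, Golm1 and Afp in each mouse (normalized CPM, log axis) against the summed CPM of 8 bile duct markers (log axis), most of which is Spp1, with the group in colour and the replicate number as the symbol. The F4MKO libraries lie at 169 CPM or more of the markers and have the highest Ly6d and Golm1, while Afp varies within a narrow range.

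The pathways around the members were followed in 8 lists of 129 genes, of which 115 were listed and 96 tested. These lists were also chosen with earlier results of these data known, so their counts describe and do not test. In F4MKO compared with Flox livers 6 of the 96 were called, all higher, where 0.202% of tested genes were. All 6 are on the list of other liver progenitor and liver cancer genes. Between F4MKO+FSTL1 and F4MKO, 3 were called higher and 24 lower, where the shares over all tested genes were 3.21% and 11.2%. Of these 24, 16 came from the same list. The medians of the 96 log2 fold changes were -0.02 and -0.26, against 0.00 and 0.01 over all tested genes. F4MKO+FSTL1 compared with Flox gave 0 calls by edgeR, with 22 of the 96 at an unadjusted p under 0.05. DESeq2 called 6 lower, where it called 234 genes lower among 14231 with an adjusted p. Over all genes, an unadjusted p under 0.05 was reached by 2424, 5080 and 1924 of the 14379 tested, in the order of comparisons given here. These numbers stand beside the counts of unadjusted p in the lists below.

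Most known regulators of Afp showed small differences. Of 14 tested factors, 0 were called in F4MKO compared with Flox by edgeR or DESeq2, with 1 at an unadjusted p under 0.05. The repressor Zhx2 had 23.6, 19.4 and 22.1 CPM in Flox, 21.1, 19.4 and 19.9 in F4MKO, and 23.3, 28.7 and 23.5 in F4MKO+FSTL1 libraries. Its log2 fold changes were -0.11 (adjusted p = 0.669 from edgeR) for F4MKO compared with Flox and 0.32 (adjusted p = 0.0663) for F4MKO+FSTL1 compared with F4MKO. The repressors Zbtb20 (-0.08 and 0.22) and Zfhx3 (0.09 and 0.24) were not called in either comparison. Cebpa, an activator of hepatocyte genes, was the single factor called, 1.58-fold higher in F4MKO+FSTL1 than in F4MKO livers (log2 fold change 0.66, adjusted p = 0.00823 from edgeR). It was 0.56, under the fold threshold, without F4MKO+FSTL1 replicate 2. The albumin family followed neither Ly6d nor Golm1. Alb had log2 fold changes of -0.08 in both comparisons, and Afm, which carries vitamin E, had -0.40 (adjusted p = 0.171 from edgeR) and 0.43 (adjusted p = 0.0413, a fold change of 1.35 that is under the threshold). No gene of this family was called by edgeR or DESeq2.

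Around H19 and Igf2, 14 of 23 other imprinted genes could be tested. None was called in F4MKO compared with Flox by edgeR or DESeq2, with 1 at an unadjusted p under 0.05. Sgce alone was called between F4MKO+FSTL1 and F4MKO, and was lower (log2 fold change -0.78, adjusted p = 0.0143 from edgeR). It lost the call without F4MKO+FSTL1 replicate 1 (-0.57) and without replicate 2 (-0.76, adjusted p = 0.0568), and 1 lower call of 14 is close to the 11.2% over all tested genes. Of the noncoding RNAs of the Dlk1 domain, Meg3 had 1 count in all libraries together and Mirg at most 11 in any library. In the insulin-like growth factor axis, 16 genes were tested, and 0 were called in F4MKO compared with Flox by either tool (2 at an unadjusted p under 0.05). Igf2r, the receptor that clears IGF2, had log2 fold changes of 0.19 and -0.15 and was not called. F4MKO+FSTL1 compared with F4MKO livers had more Igfals, which holds IGF1 in a serum complex (1.07, adjusted p = 0.0183 from edgeR). They had less of the binding proteins Igfbp1 (-1.35, adjusted p = 0.00499) and Igfbp7 (-0.79, adjusted p = 0.00182). These 2 lower calls of 16 are also near the share over all tested genes.

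The relatives of Gpc3, Golm1 and Ly6d were followed as well. Of 9 tested glypicans, syndecans and sulfatases, 0 were called in F4MKO compared with Flox by edgeR or DESeq2 (1 at an unadjusted p under 0.05). After FSTL1, Gpc1 was higher than in F4MKO livers (1.04, adjusted p = 0.0139 from edgeR), and Gpc6 (-0.96, adjusted p = 0.0191) and Sdc3 (-0.76, adjusted p = 0.0196) were lower. These 3 calls became 0 without F4MKO replicate 1, 2 without F4MKO+FSTL1 replicate 1 and 1 (Gpc1) without F4MKO+FSTL1 replicate 2. Gpc4, the neighbour of Gpc3, was not called (-0.24 and 0.41). Among 10 other Golgi proteins, furin included, 0 were called in either comparison by edgeR or DESeq2, with 0 and 2 at an unadjusted p under 0.05. The largest difference among them was that of Casc4 after FSTL1 (-0.59, adjusted p = 0.0753 from edgeR), and this gene was called lower without the filter, with only the 6 compared libraries, and without Flox replicate 3. In the Ly6 family 7 relatives of Ly6d were tested. In F4MKO compared with Flox 0 of them were called by either tool, although 3 had an unadjusted p under 0.05 and the median log2 fold change was 0.55. Between F4MKO+FSTL1 and F4MKO, 3 were called lower, namely Lynx1 (-1.62), Ly6e (-1.46) and Ly6c2 (-1.02), and 5 were called without the filter on low counts. Ly6e was the most abundant of these, with 642 ± 80.3, 891 ± 129 and 323 ± 90.8 CPM (SD, n = 3) in the 3 groups.

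Other genes of liver progenitors and liver cancer differed in the same directions as Ly6d and Golm1. Of 25 tested genes of this list, 6 were called higher in F4MKO than in Flox, and the log2 fold change was positive for 23, with a median of 0.82. They were Tspan8 (2.38), Cd24a (2.06), Spp1 (2.05), Epcam (2.01), Ccnd1 (1.59) and Scd2 (1.06). Cd24a and Epcam encode surface proteins of hepatic progenitor and bile duct cells, Spp1 encodes osteopontin, and Ccnd1 encodes cyclin D1. After FSTL1, 16 were called lower than in F4MKO livers and 24 of the 25 had a negative log2 fold change, with a median of -1.25. The largest falls were in Tspan8 (-3.09), Ccnd1 (-2.81), Spp1 (-2.64), Epcam (-2.58), Cd24a (-2.43) and Akr1b7 (-2.25). F4MKO+FSTL1 compared with Flox gave 0 calls by edgeR, with 5 at an unadjusted p under 0.05 and 2 called by DESeq2. Epcam, Krt19, Sox9, Spp1 and Tspan8 are also on the list of bile duct markers. Some fetal genes of this list gave almost no reads. Lin28a and Trim71 had a total of 1 count each over the 9 libraries together, and Hmga2 had at most 4 in any library. Others were detected at low counts, with 12 to 28 per library for Igf2bp3 and at most 12 for Sall4. The calls in F4MKO compared with Flox fell to 0 when Flox replicate 1, 2 or 3 or F4MKO replicate 1 was left out.

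**Figure D4:**
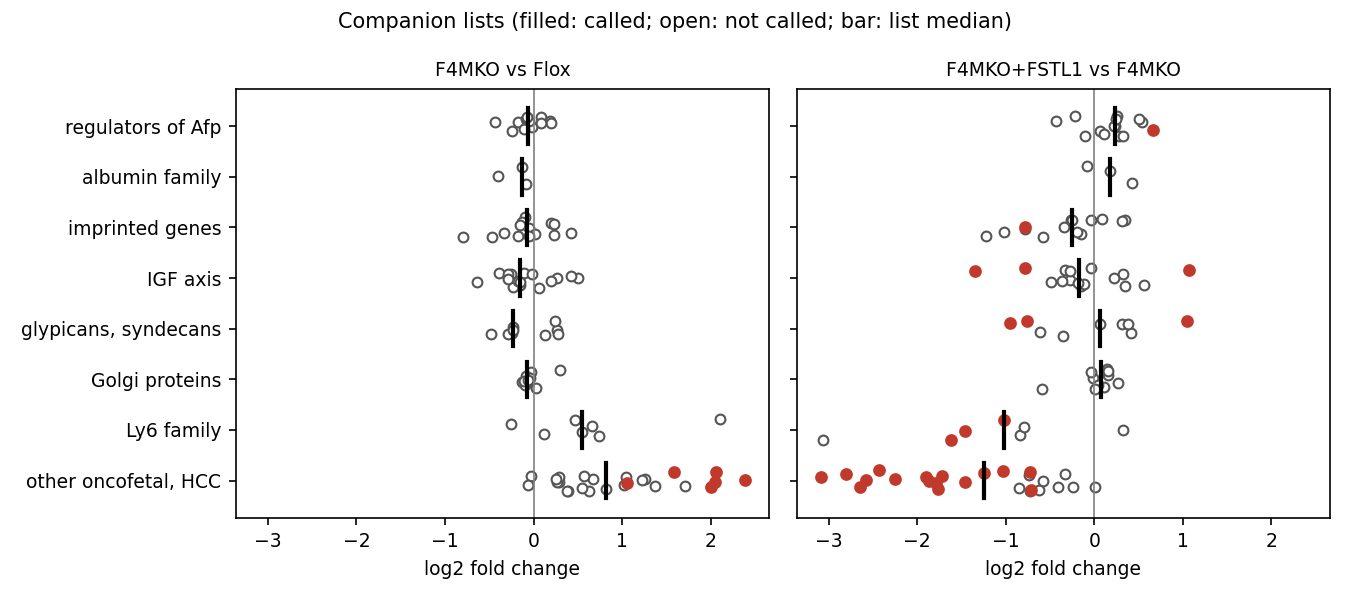
Log2 fold change of every tested gene of the 8 lists, with F4MKO compared with Flox on the left and F4MKO+FSTL1 compared with F4MKO on the right; filled points were called, open points were not, and the bar is the median of the list. The list of other oncofetal and liver cancer genes lies to the right in the first comparison (median 0.82) and to the left in the second (median -1.25). The medians of the regulators of Afp (-0.06 and 0.24) and of the Golgi proteins (-0.07 and 0.07) are nearer to 0.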

How the data were processed

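Liver RNA of 3 Flox, 3 F4MKO and 3 F4MKO+FSTL1 mice was sequenced by the authors on BGIseq500 (paired reads of 150 bases). Per the submitters' processing notes, reads were trimmed (Trim Galore 0.6.7), mapped to mm10 (HISAT2 2.2.1) and counted per gene (featureCounts 2.0.1). The authors deposited these raw counts for 24008 genes. The annotation, the use of strand and the handling of reads with several matches are not given in the sources used here.

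Genes were kept by filterByExpr (minimum count 10, minimum total 15), scaled by TMM and tested in R 4.3.3 with edgeR 4.0.16 (glmQLFit, glmQLFTest), in a single fit of all 9 libraries with a mean per group. p-values were adjusted by the Benjamini-Hochberg method over the 14379 tested genes, never over the members alone. Log2 CPM used a prior count of 2, and RPKM used the union of GENCODE vM21 exons. Biological variation, as edgeR's common coefficient, was 0.150.

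Alternatives were DESeq2 1.42.0, its size factors in edgeR, no filter, the 6 compared libraries alone, the replicate number as a block, adjusted p alone, and each library left out in turn. The members and the lists around them were chosen with earlier results of these data known. Named were all members, the called genes of each list (at most 6 per comparison), Zhx2, Zbtb20, Zfhx3, Alb, Afm, Igf2r and Gpc4, and the 3 genes most like each member by Pearson's r. Values of Elf3, Meox1, Prss8, Naa35, Irf4, Fstl1, Xist, Ddx3y, Ly6e, Casc4, Igf2bp3, Sall4 and of the genes with almost no reads were added after they were seen.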

Additional observations from a re-analysis of the deposited data

How the results depend on the processing

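The 2 member calls in F4MKO+FSTL1 compared with F4MKO (Golm1 and Ly6d lower) held under every alternative run, with 2 to 3 members called, the third being H19 without the filter. In F4MKO compared with Flox the 1 call became 2 with DESeq2 and 3 without the filter (H19, Golm1 and Ly6d), and 0 to 1 when single libraries were left out. In F4MKO+FSTL1 compared with Flox the 0 calls became 2 with DESeq2 and without the filter, and 0 to 2 with single libraries left out, the 2 being Golm1 and Ly6d without F4MKO+FSTL1 replicate 3. The list genes called in F4MKO compared with Flox numbered 6, and 11 with DESeq2, 11 without the filter, 1 with the 6 compared libraries and 0 to 6 with libraries left out. In F4MKO+FSTL1 compared with Flox they numbered 0, and 6 with DESeq2, 7 without the filter, 1 with the replicate block and 0 to 3 with libraries left out. Over all genes the 39 calls in F4MKO compared with Flox became 338 with DESeq2, 478 without the filter, 11 with the 6 compared libraries, 134 with the block and 0 to 100 with libraries left out. The 1 call in F4MKO+FSTL1 compared with Flox became 284, 379, 0, 15 and 0 to 101 under the same settings. The 2070 calls in F4MKO+FSTL1 compared with F4MKO ran from 1295 to 2216 with libraries left out. Directions changed for values that were not called. With single libraries left out, Igf2 ran from -0.14 (without Flox replicate 3) to 0.64 in F4MKO compared with Flox. It ran from -0.68 to 0.23 in F4MKO+FSTL1 compared with F4MKO, above 0 without F4MKO replicate 1 (0.14) or F4MKO+FSTL1 replicates 1 (0.23) or 2 (0.05). It ran from -0.40 to 0.55 in F4MKO+FSTL1 compared with Flox, below 0 without F4MKO+FSTL1 replicate 3 (-0.40) or Flox replicate 3 (-0.23). In that comparison Afp ran from -0.28 to 0.016 (without F4MKO+FSTL1 replicate 2) and H19 from -0.079 (without F4MKO+FSTL1 replicate 3) to 0.83. The cause of these changes was not tested. Igf2 was removed by the filter in the fits of 6 libraries and has no value there. Each mouse gave 1 library, so a shared replicate number does not mean a shared mouse. Deviations from the group means were correlated between libraries of the compared groups. In the 3 comparisons r ran from 0.042 to 0.169, from 0.0919 to 0.304 and from -0.099 to 0.206 for equal numbers. For unequal numbers it ran from -0.137 to 0.0499, from -0.190 to 0.0834 and from -0.149 to 0.166. A library's best match had its own number in 5 of 6, 6 of 6 and 2 of 6 cases. In the first 2 comparisons the numbers thus carried some shared structure, and its source was not tested. The main fit did not use the numbers, and the replicate block left the members called at 1, 2 and 0. Counts of 2 to 14 per library limit what can be said of Igf2.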
